A study of Mus musculus with 20 samples.

Results

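Tumors that received an adenoviral vector for p19Arf together with one for interferon beta were compared with tumors that received the interferon beta vector alone. The comparison used 10 of the series' 20 microarrays, 5 labelled as transduced with both vectors (p19Arf+IFNbeta) and 5 labelled as transduced with the interferon beta vector (IFNbeta), and it asks what the p19Arf vector added to the interferon vector. It was made over 19938 genes, each read from a probe set that carries 1 gene symbol; where a gene had several, the probe set that was brightest on average across the 20 arrays stood for it. All tumors were implants of LLC-1, the Lewis lung carcinoma line, in C57Bl/6 mice. They were injected 5 times, 48 h apart, with 25 µl of PBS that carried virus at 8 log10 infectious units, per the series' design text. The same load is listed for every group, and whether it is per vector or in total is not known here. A different dose of the interferon vector, or of virus in all, therefore cannot be told apart from the addition of p19Arf. The other 10 arrays, 5 of tumors given a vector for the marker eGFP and 5 given the p19Arf vector alone, entered the fit for its estimate of the spread, so every tumor carried adenovirus and no group was uninjected. The labels name neither the promoters of the vectors nor the share of cells that took them up, and they do not say that arrays of a group came from separate animals, so p-values measure only the spread between these samples.

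Interferon beta is a secreted cytokine that signals through the receptor subunits Ifnar1 and Ifnar2 and the kinases Jak1 and Tyk2 to transcription factors that include Irf9. These bind interferon-stimulated response elements near the start sites of antiviral genes and switch them on. p19Arf, an alternative product of the Cdkn2a locus, holds Mdm2 away from p53 and so lets p53 raise its targets, among them genes that halt the cell cycle and start cell death. Bulk tumor RNA also holds host cells, and in such samples fewer cells of a type and less RNA per cell cannot be told apart.

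No gene passed the threshold of an adjusted p under 0.05 (limma, Benjamini-Hochberg over 19938 genes). The smallest adjusted p was 0.0575, for Samd9l, and 5147 genes (25.8%) had an unadjusted p under 0.05, 2352 of them higher (11.8%) and 2795 lower (14%) with the combination. Trended and robust moderation, a fit on the 10 arrays alone, and quantile normalization also gave 0, and median centring gave 1, lower. The count turned on 1 array: without IFNbeta replicate 3, 2351 genes passed (11.8%), 591 higher (2.96%) and 1760 lower (8.83%). That array correlated with the other 4 IFNbeta arrays at r from 0.979 to 0.984 over all genes, against 0.991 to 0.996 among those 4. Its mean over 18 skin epidermis markers was 8.40, against 6.53 to 6.70 on the other IFNbeta arrays and 6.64 to 6.90 on the combination arrays. The part of skin in the difference between the groups was not tested.

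The arrays also differed in spread, the SD of the log2 values over all genes of an array, which was 1.90 ± 0.06 in the IFNbeta group and 1.80 ± 0.08 in the combination group (SD, n = 5 each). With that spread as a covariate, 724 genes had an unadjusted p under 0.05 and 0 passed. Without IFNbeta replicate 3, 0 genes passed either with that covariate or after quantile normalization, while 1852 passed when the other 9 arrays were fitted alone. The differences below are therefore given as values, with their number read against the share over all genes, and none is a call. A gene said to pass without IFNbeta replicate 3 does so in that fit, and the pass depends on the scaling. Tumor cell and epithelial markers overlapped between the groups, with list means of 7.03 to 7.30 on the IFNbeta arrays and 7.10 to 7.46 on the combination arrays. The table has no detection calls, so presence of LLC-1 markers could not be read from it.

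Neither gene that the vectors carry passed the test. Cdkn2a, whose locus encodes p19Arf, was at 7.47, 7.29, 7.45, 7.29 and 7.39 on the IFNbeta arrays and at 7.47, 7.25, 7.63, 7.82 and 7.57 on the combination arrays. The groups overlapped, with 3 combination arrays above all IFNbeta arrays, 1 level with the highest of them to 2 decimals, and 1 below them all. The difference was 0.17 (SE 0.10, adjusted p 0.259; exact permutation p = 0.143, 2-sided, with 0.00794 the smallest this design allows). Ifnb1, interferon beta itself, was carried in both groups and stood at 6.21 ± 0.26 in the IFNbeta group and 6.03 ± 0.23 in the combination group (SD, n = 5 each), a difference of -0.18 (SE 0.13, adjusted p 0.339; exact permutation p = 0.294). Each gene has 1 probe set here, and whether it covers the sequence in the vector is not known.

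Genes of the type I interferon response were lower in mean in the tumors with both vectors. Of 35 measured members of that list 34 were lower, against 42.9% of all genes, and 18 had an unadjusted p under 0.05 in that direction against 14% of all genes. In 11 of them every combination array lay below every IFNbeta array, which held for 0.782% of all genes. The median difference was -0.34 on the log2 scale, against 0.05 over all genes. Averaged over the list, the level was 9.84 ± 0.27 in the IFNbeta group and 9.50 ± 0.14 in the combination group, with eGFP tumors at 9.43 ± 0.04 and p19Arf tumors at 9.36 ± 0.24 (SD, n = 5 each). Thus the combination stood 0.35 below IFNbeta (SE 0.12), and the mean of IFNbeta replicate 3, at 10.31, was the highest of the 5.

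The core of the response element, 2 copies of GAAA with any 2 bases between them, on either strand, was searched for in the 250 bases before each gene's start (RefSeq, GRCm38.p6). Promoters were found for 26 of the 35 list members and 10 of these (38.5%) held it, against 531 of 15614 genes overall (3.4%). Of these 10 members, the stretches of the 4 with the smallest p, all lower in mean, are shown. Each therefore holds the motif by choice. Capitals mark the motif, which reads as 2 copies of TTTC on the strand of the gene here.
Ifit1 (chr19:34640775-34640854, + strand): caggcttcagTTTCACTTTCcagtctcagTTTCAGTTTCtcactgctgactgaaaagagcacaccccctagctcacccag
Ifit3 (chr19:34583363-34583442, + strand): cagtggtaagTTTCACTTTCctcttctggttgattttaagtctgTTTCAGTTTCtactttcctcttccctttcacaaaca
Ifit3b (chr19:34607759-34607838, + strand): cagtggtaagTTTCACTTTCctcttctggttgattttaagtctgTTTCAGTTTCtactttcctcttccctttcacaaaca
Rsad2 (chr12:26456503-26456582, - strand): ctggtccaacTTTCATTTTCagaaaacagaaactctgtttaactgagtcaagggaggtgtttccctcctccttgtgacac
Ifit1, Ifit3 and Ifit3b hold 2 copies each and Rsad2 holds 1, and the stretches of Ifit3 and Ifit3b are identical. These paralogs are near copies, so probes may not separate them. Members with the motif had a median difference of -0.33 (n = 10) and those without had -0.32 (n = 16).

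Samd9l, an antiviral restriction factor, had the smallest p of all genes. It was at 10.50, 10.49, 10.66, 10.46 and 10.57 on the IFNbeta arrays and at 10.03, 10.23, 9.94, 9.75 and 9.96 on the combination arrays. The groups did not overlap, and the difference of -0.55 (SE 0.09) was larger than the spread within either group. It was -0.52 without IFNbeta replicate 3, where it passed (adjusted p 0.038; between 0.0124 and 0.901 over its 24 alternative settings).

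Usp18, which takes ISG15 off proteins and dampens the interferon receptor, was at 10.45, 10.06, 11.01, 10.29 and 10.55 against 9.63, 10.01, 9.89, 9.58 and 9.44. IFNbeta replicate 3 was the highest array, and the groups did not overlap although combination replicate 2 came within a narrow margin of IFNbeta replicate 2. The difference was -0.77 (SE 0.17, adjusted p 0.150), a level 1.70 times higher with IFNbeta alone. Cmpk2, a mitochondrial nucleotide kinase whose gene neighbours Rsad2, was at 9.43, 9.22, 9.75, 9.31 and 9.65 against 8.66, 9.07, 8.79, 8.54 and 8.25. Its groups did not overlap either, with a difference of -0.81 (SE 0.17, adjusted p 0.150).

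Ifit1, which binds viral RNA that lacks the host cap methylation, was at 10.42, 10.29, 11.00, 10.15 and 10.34 against 9.85, 10.13, 10.02, 9.64 and 9.44. Its difference was -0.63 (SE 0.16, adjusted p 0.150), with the lowest IFNbeta array close to the highest combination array. Rsad2, the antiviral enzyme viperin, differed by -0.73 and Phf11d by -0.68, with no overlap in either gene. Without IFNbeta replicate 3, 9 members of the list passed, all lower (8.83% of all genes did). They were Ifit1, Ifit3b, Usp18, Rsad2, Cmpk2, Ddx58, Ifih1, Samd9l and Phf11d. Their differences then lay between -0.39 for Ifih1 and -0.74 for Cmpk2. The list's median was -0.21 without that array, with 30 of 35 members lower, and -0.20 after quantile normalization.

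Not all interferon genes were apart. Mx1, a GTPase that traps influenza viruses, was at 7.77, 7.59, 9.07, 7.82 and 7.85 against 7.55, 7.51, 7.94, 7.69 and 7.66. Its difference of -0.35 (SE 0.22, adjusted p 0.272) became -0.09 when IFNbeta replicate 3 was left out. Irf7, the regulator that amplifies interferon production, was at -0.28 with all arrays and -0.08 without replicate 3. Stat2 was at 0.04, and was the one member higher in mean.

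**Figure D1:**
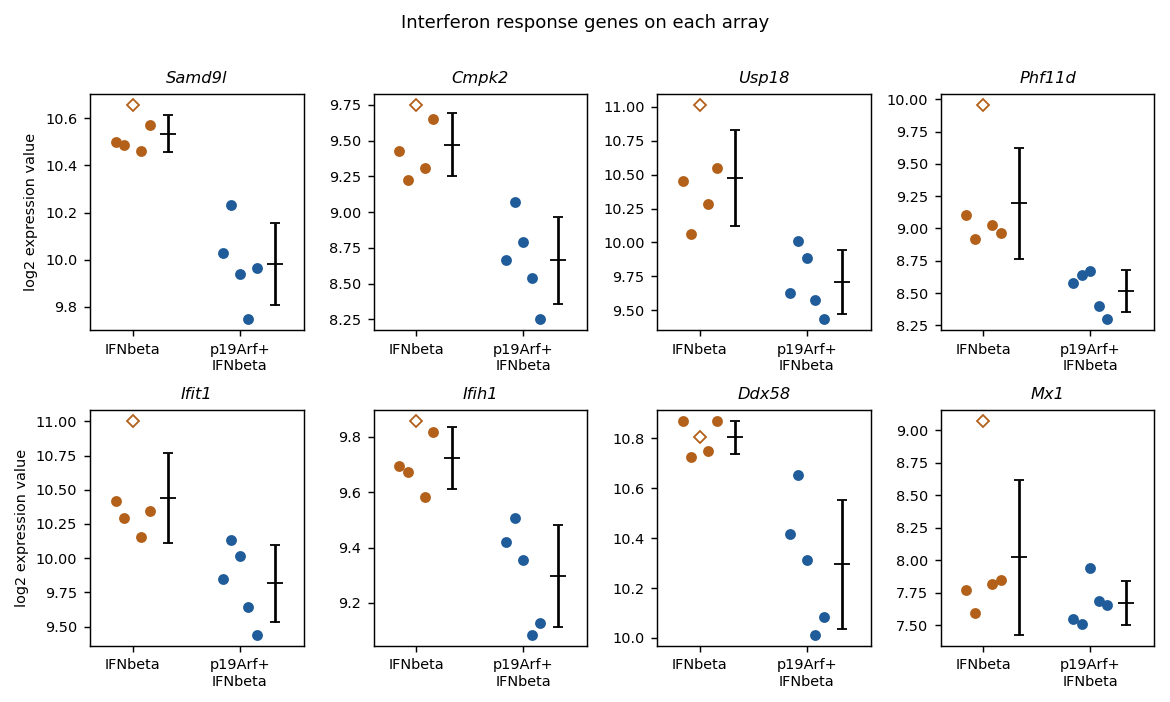
Log2 expression value of 8 interferon response genes on each array of the IFNbeta group (brown) and the p19Arf+IFNbeta group (blue); the open diamond is IFNbeta replicate 3, and the black bar and whiskers are the mean and SD of 5 arrays. In Samd9l, Cmpk2, Usp18, Phf11d, Ifit1, Ifih1 and Ddx58 all blue points lie below all brown ones, while in Mx1 the IFNbeta group stands higher mainly through its diamond at 9.07.

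Sensors of foreign nucleic acid, a list that shares members such as Ddx58 and Ifih1 with the interferon list, followed the same direction in mean. Of 17 measured members 13 were lower, 10 with an unadjusted p under 0.05, against 42.9% and 14% of all genes. Another 1 was higher at that p (11.8% of all genes), with no overlap between the groups. The median difference was -0.33 (-0.15 after quantile normalization and -0.27 without IFNbeta replicate 3). Ddx58, the RNA sensor RIG-I, was at 10.87, 10.73, 10.80, 10.75 and 10.87 against 10.42, 10.66, 10.31, 10.01 and 10.08. Its IFNbeta arrays lay close together and above all combination arrays, with a difference of -0.51 (SE 0.14, adjusted p 0.150). Ifih1, the sensor MDA5, differed by -0.43 (SE 0.10), and the adaptor Mavs through which both signal by -0.39. Tlr3, which senses double-stranded RNA in endosomes, differed by -0.62 (SE 0.21), but by -0.20 with the array spread as a covariate. Of the 17, 4 passed without IFNbeta replicate 3, all lower (8.83% of all genes did).

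The receptor and its signal chain showed fewer differences, with 5 of 13 members higher and 8 lower and a median of -0.04, or 0.10 after quantile normalization. Jak1, the kinase bound to Ifnar2, was at -0.37 (SE 0.16, adjusted p 0.162), Ifnar2 at -0.27 and Ifnar1 at -0.03. Socs3, a feedback inhibitor of cytokine receptors, was at 9.48, 9.38, 9.86, 9.63 and 9.81 against 10.06, 10.03, 9.92, 10.15 and 9.75. It was higher in mean by 0.35 (SE 0.11, adjusted p 0.150), with 4 of 5 combination arrays above all IFNbeta arrays, and passed without IFNbeta replicate 3 (0.41, adjusted p 0.038).

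Genes linked to interferon gamma and to antigen presentation did not share the lower means. Of 16 interferon gamma associated genes 8 were higher and 8 lower, with a median of 0.05, or 0.15 after quantile normalization. Irf1, the transcription factor that relays interferon gamma, was at 10.52, 10.76, 10.79, 10.77 and 10.96 against 11.05, 10.90, 11.12, 11.22 and 11.08, a difference of 0.31 (SE 0.11, adjusted p 0.151). Of these combination arrays 4 lay above all IFNbeta arrays. Nlrc5, the activator of MHC class I genes, was higher by 0.55 (SE 0.20) and Tap2, a subunit of the peptide transporter, by 0.40 (SE 0.12). Both overlapped through IFNbeta replicate 3, and both passed without it, at 0.70 and 0.49.

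The MHC class I and peptide loading list as a whole had 7 of 15 members higher, a median of -0.06, and 0.12 after quantile normalization, so its direction changed with the scaling. Calr, a chaperone of class I folding, was at -0.20 (SE 0.09). Of 9 MHC class II genes 7 were higher, with H2-Eb1 at 0.40 (SE 0.14, adjusted p 0.150) and H2-Ab1 at 0.37 (SE 0.14, adjusted p 0.154). In both genes 3 of 5 combination arrays lay above all IFNbeta arrays, and neither passed without IFNbeta replicate 3.

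Targets of p53 were not higher as a group in the tumors that also received p19Arf. Of 30 measured targets 12 were higher and 18 lower, with a median of -0.12, which was -0.02 after quantile normalization and 0.03 with the spread covariate. Mdm2, both a target and the inhibitor of p53, was at 10.39 ± 0.11 in the IFNbeta group and 10.31 ± 0.13 in the combination group (SD, n = 5 each). Its difference of -0.08 (SE 0.11, adjusted p 0.590) changed sign to 0.09 after quantile normalization and to 0.03 with array spread as a covariate. Tnfrsf10b, a death receptor for TRAIL, was at -0.36 (SE 0.13), Ei24 at -0.67 (SE 0.27) and Ephx1, a detoxifying epoxide hydrolase, at -0.41 (SE 0.15). Without IFNbeta replicate 3 these 3 and Ckap2 passed out of the 30, all lower (8.83% of all genes did). With the array spread as a covariate Tnfrsf10b was at -0.09. Trp73, a relative of p53, was the target with the smallest p among the higher ones, at 0.24 (SE 0.10, adjusted p 0.163).

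Of 19 genes of the Arf and p53 core and their nucleolar partners, 7 were higher and 12 lower, with a median of -0.03 that was 0.09 after quantile normalization. Npm1, the nucleolar protein that binds p19Arf, was at 11.35, 11.52, 11.33, 11.50 and 11.15 against 11.21, 11.40, 11.13, 10.49 and 10.88. The groups overlapped, with combination replicate 4 the lowest, and the difference was -0.35 (SE 0.15, adjusted p 0.168).

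Cell cycle genes were lower in mean in 28 of 31 cases, 15 with an unadjusted p under 0.05, against 42.9% and 14% of all genes, and 2 were higher at that p. The median difference was -0.29. The size depended on the scaling, with -0.16 after quantile normalization and -0.04 with array spread as a covariate, and was -0.40 without IFNbeta replicate 3, when 11 passed, all lower (8.83% of all genes did). The difference of list means was -0.26, or -0.16 without p19Arf+IFNbeta replicate 4. The list means were 10.18, 10.29, 9.84, 10.30 and 10.31 on the IFNbeta arrays and 10.16, 10.20, 9.91, 9.51 and 9.83 on the combination arrays. IFNbeta replicate 3 was the lowest of its group and combination replicate 4 the lowest of all. Rrm2, a subunit of the enzyme that makes deoxynucleotides, was at 10.28, 10.32, 9.99, 10.64 and 10.65 against 10.15, 10.34, 10.00, 9.22 and 9.65 (difference -0.51, SE 0.17, adjusted p 0.150). Its groups overlapped. Bub1, a kinase of the spindle checkpoint, differed by -0.55 (SE 0.20) and the helicase subunit Mcm4 by -0.61 (SE 0.23), while Cdc6, which loads that helicase, was higher by 0.29 (SE 0.10) with no overlap.

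Among cell death effectors 9 of 23 were higher and 14 lower, with a median of -0.06 that was 0.04 after quantile normalization. Gsdmd, the pore-forming gasdermin of pyroptosis, was at 8.55, 8.71, 9.04, 8.57 and 8.66 against 9.12, 8.82, 9.13, 9.70 and 9.75. In 4 of 5 combination arrays it lay above all IFNbeta arrays, a difference of 0.60 (SE 0.19, adjusted p 0.150) that was 0.68 without IFNbeta replicate 3, where it passed. Mlkl, the executor of necroptosis, was at -0.34 (SE 0.12), Casp1, the inflammasome protease, at -0.46 (SE 0.19) and Bcl2l1, which encodes the survival protein Bcl-xL, at 0.33 (SE 0.14). Casp1 was at 0.00 to 2 decimals with the array spread as a covariate.

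Genes of the unfolded protein response were lower in 13 of 18 cases, 8 with an unadjusted p under 0.05 (14% of all genes), with a median of -0.13, or -0.01 after quantile normalization. Herpud1, part of the machinery that clears misfolded proteins from the endoplasmic reticulum, was at -0.42 (SE 0.12, adjusted p 0.150), its regulator Xbp1 at -0.33 (SE 0.14) and the chaperone Hspa5 at -0.28 (SE 0.10). Genes of hypoxia and glycolysis were lower in 17 of 20 cases, with a median of -0.17, or -0.06 after quantile normalization. Slc2a1, the glucose transporter GLUT1, was at -0.37 (SE 0.12), Ndrg1 at -0.47 (SE 0.14) and the vasodilator peptide gene Adm at -0.31 (SE 0.10). In Adm all combination arrays lay below all IFNbeta arrays, and in Ndrg1 4 of 5 did. Of these lists 4 of the 18 and 6 of the 20 passed without IFNbeta replicate 3, all lower, against 8.83% of all genes. Mitochondrial respiratory chain genes were lower in 14 of 20, with a median of -0.17 that was -0.01 after quantile normalization. These lists lie at high levels, with IFNbeta means of 10.30, 10.96 and 10.74 in the order given. The median difference of all genes at 9.59 and above was -0.19, so these list medians were no lower than that of genes of like level.

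Genes that attract or mark neutrophils included several of the higher means. S100a9, which encodes a chain of calprotectin, stood at 9.21, 9.36, 9.43, 9.13 and 9.10 against 10.64, 9.77, 9.28, 10.77 and 9.90. Combination replicates 1 and 4 were highest, replicate 3 fell among the IFNbeta arrays, and the difference was 0.83 (SE 0.24, adjusted p 0.150). Ngp, a neutrophil granule protein, was at 5.78, 5.86, 5.78, 5.74 and 5.61 against 6.20, 6.32, 6.16, 6.36 and 5.93, with no overlap (0.44, SE 0.09, adjusted p 0.150). Both passed without IFNbeta replicate 3. Of 18 neutrophil markers 14 were higher, with a median of 0.16, against 57.1% of all genes and a median of 0.05, and list means ran from 7.89 to 8.22 on the IFNbeta arrays and from 7.86 to 8.44 on the combination arrays. Their difference was 0.13, or 0.06 without p19Arf+IFNbeta replicate 1.

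Cxcl3, a ligand of the neutrophil receptor Cxcr2, was at 8.10, 8.08, 8.26, 8.06 and 8.39 against 8.89, 8.56, 8.20, 9.43 and 8.53. The difference was 0.55 (SE 0.16, adjusted p 0.150), again with combination replicate 3 inside the IFNbeta range. Ccl3, the chemokine MIP-1alpha, showed the same arrays apart, at 11.05, 11.06, 11.32, 10.95 and 11.39 against 12.04, 11.53, 10.98, 12.55 and 11.51 (0.57, SE 0.21, adjusted p 0.152). Ppbp, a chemokine that platelets release, went the other way, at 9.43, 8.43, 9.97, 9.40 and 9.78 against 7.92, 9.25, 7.76, 8.44 and 8.68 (-0.99, SE 0.27, adjusted p 0.150). Of the 13 neutrophil-attracting and MIP-1 genes 7 were higher and 6 lower, with a median of 0.01, or -0.06 without IFNbeta replicate 3.

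Of 25 NF-kB and inflammatory cytokine genes 18 were higher, 6 with an unadjusted p under 0.05, against 57.1% and 11.8% of all genes. The median was 0.12, and 0.16 after quantile normalization, and the difference of list means was 0.15, or 0.08 without p19Arf+IFNbeta replicate 4. Il1b, the inflammasome cytokine, was at 10.46, 10.69, 11.01, 10.79 and 10.86 against 11.91, 10.95, 10.83, 12.22 and 10.83. Combination replicates 1 and 4 stood above the others, the groups overlapped, and the difference was 0.59 (SE 0.24, adjusted p 0.162). Tnf was higher by 0.37 (SE 0.16), Csf3, the neutrophil growth factor G-CSF, by 0.27 (SE 0.11), and the macrophage growth factor Csf1 was at -0.20 (SE 0.09).

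Of 15 T cell markers 10 were higher, 4 with an unadjusted p under 0.05, and 1 was lower at that p (of all genes 57.1%, 11.8% and 14%); the median was 0.05 and none passed without IFNbeta replicate 3. Cd3d, a chain of the T cell receptor complex, ran from 6.55 to 6.97 on the IFNbeta arrays and from 6.88 to 7.55 on the combination arrays (0.42, SE 0.12, adjusted p 0.150), and Cd8a was at 0.34 (SE 0.15, adjusted p 0.170). Combination replicate 1 was the highest in both genes, and the difference of list means, 0.07, was -0.03 without that array. Ccr7 was among the 5 lower T cell markers, at -0.23. Of 14 cytotoxic effectors 0 had an unadjusted p under 0.05 by limma and 0 passed. Gzmb, granzyme B, was at 9.67, 9.25, 9.77, 9.22 and 9.95 against 10.31, 9.30, 9.03, 8.54 and 8.12, which spans more than the IFNbeta range in both directions (-0.51, SE 0.26, adjusted p 0.208). Of 13 NK cell markers 8 were lower and 5 higher (42.9% of all genes were lower), with Itga2 at -0.41 (SE 0.13) and Klri2 at -0.32 (SE 0.12). The median of that list was -0.03, or 0.03 with array spread as a covariate. Of 16 checkpoint and regulatory T cell genes 9 were higher, with Cd274, which encodes PD-L1, at 0.36 (SE 0.17) and the costimulatory receptor Tnfrsf9 at -0.37 (SE 0.16).

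Macrophage and monocyte markers were lower in 17 of 24 cases, with a median of -0.16 that was -0.06 after quantile normalization. The difference of list means was -0.12, or -0.05 without p19Arf+IFNbeta replicate 4. Adgre1, the macrophage antigen F4/80, was at 10.93, 10.80, 10.51, 10.88 and 10.66 against 10.52, 10.89, 10.62, 9.58 and 9.82. Combination replicates 4 and 5 were low and the other 3 lay within or near the IFNbeta range (-0.47, SE 0.20, adjusted p 0.168). The list means showed the same arrays apart, at 9.39 and 9.44 in replicates 4 and 5 against 9.66 to 9.92 in the IFNbeta group. Cd68 was at -0.42 (SE 0.19), the complement gene C1qc at -0.39 (SE 0.17) and the mannose receptor Mrc1 at -0.33 (SE 0.15), and with the spread covariate they were at -0.18, -0.13 and -0.11. Retnla, a marker of alternatively activated macrophages, was among the 7 higher ones, at 0.46 (SE 0.22).

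Of 19 dendritic cell markers 12 were lower, with Cd209a, the mouse DC-SIGN, at -0.64 (SE 0.17, adjusted p 0.150) and Batf3, a factor of cross-presenting cells, at 0.38 (SE 0.15). Both passed when IFNbeta replicate 3 was left out, at -0.76 and 0.50. Of 16 mast cell and eosinophil markers 9 were lower, with the protease gene Cpa3 at -0.68 (SE 0.26) and Fcer1a, a chain of the IgE receptor, at -0.40 (SE 0.13). Hdc, the enzyme that makes histamine, was among the 7 higher ones, at 0.48 (SE 0.22). Of 20 endothelial markers 11 were higher and 9 lower, with the junction cadherin Cdh5 at -0.43 (SE 0.16) and the mucin Emcn at -0.52 (SE 0.18). These were -0.12 and -0.16 with array spread as a covariate. In the other direction Sox17, a transcription factor of arterial endothelium, was at 0.22 (SE 0.09), and the secreted factor Egfl7, at 0.25 (SE 0.12), passed without IFNbeta replicate 3. At an unadjusted p under 0.05, 2 endothelial markers were higher and 4 lower, against 11.8% and 14% of all genes.

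Markers of tissue that can come with an implant varied between arrays of both groups. List means of 22 skeletal muscle markers ran from 7.34 to 9.28 on the IFNbeta arrays and from 7.38 to 8.90 on the combination arrays, and 0 members had an unadjusted p under 0.05 by limma. Those of 14 adipocyte markers ran from 7.48 to 8.14 and from 7.32 to 7.90, with 11 members lower. Hair follicle keratins were higher in 14 of 15 cases, with a median of 0.20 that was 0.08 after quantile normalization, against 57.1% of all genes. B and plasma cell markers were higher in 10 of 16, with a median of 0.08, or 0.00 after quantile normalization. At an unadjusted p under 0.05, 0 of them were higher and 2 lower, against 11.8% and 14% of all genes. Erythroid and platelet markers were higher in 5 of 8. The part of these tissues in the differences above was not tested, except that with the muscle list mean as a covariate 0 genes passed and 5203 had an unadjusted p under 0.05.

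The remaining lists had medians near that of all genes. Of 22 other chemokine genes 10 were higher (median -0.01), with the eosinophil attractant Ccl11 at 0.32 (SE 0.14) and Ccl22 at -0.27 (SE 0.12). Of 17 circadian clock genes 9 were higher (median 0.02), with the repressor Bhlhe40 at -0.54 (SE 0.16), which passed without IFNbeta replicate 3. Of 13 TGF-beta and wound response genes 5 were higher (median -0.03), with Ltbp2, a matrix protein of the latent TGF-beta binding family, at 0.54 (SE 0.15) and the ligand Tgfb3 at -0.50 (SE 0.20).

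Fibroblast and matrix genes were higher in mean in 21 of 28 cases, 11 with an unadjusted p under 0.05, against 57.1% and 11.8% of all genes, and 3 were lower at that p. In 3 of them every combination array lay above every IFNbeta array, which held for 1.3% of all genes. The median was 0.23, and it was 0.25 without IFNbeta replicate 3, 0.31 after quantile normalization and 0.28 with array spread as a covariate. The difference of list means was 0.19, and it was 0.07 without p19Arf+IFNbeta replicate 1. List means ran from 9.69 to 10.02 on the IFNbeta arrays and from 9.64 to 10.46 on the combination arrays, so they overlapped.

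Col1a1, a chain of type I collagen, was at 10.62, 10.24, 11.99, 10.74 and 10.30 on the IFNbeta arrays and at 12.37, 11.32, 12.30, 12.39 and 11.90 on the combination arrays. IFNbeta replicate 3 alone reached the combination range, and the other 4 IFNbeta arrays lay below all combination arrays. The difference was 1.28 (SE 0.35, adjusted p 0.150), a level 2.42 times higher with the combination, and 1.58 without IFNbeta replicate 3, where it passed (adjusted p 0.038; between 0.0248 and 1 over its 24 alternative settings). With the array spread as a covariate it was 0.88. Col1a2, the partner chain, was at 9.97, 9.62, 10.87, 10.23 and 9.63 against 11.92, 10.82, 11.48, 11.27 and 10.68 (1.17, SE 0.32, adjusted p 0.150), again with IFNbeta replicate 3 the highest of its group.

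Col3a1, of type III collagen, was at 10.70, 10.52, 11.02, 10.80 and 10.56 against 11.83, 11.05, 11.42, 11.23 and 11.02, with the lowest combination array just above IFNbeta replicate 3 (0.59, SE 0.15, adjusted p 0.150). Mfap4, a protein of elastic microfibrils, was at 7.26, 7.49, 7.60, 7.89 and 7.76 against 8.77, 7.99, 8.29, 8.26 and 7.93. Its groups did not overlap (0.65, SE 0.14, adjusted p 0.150), and the size hardly depended on the scaling, at 0.64 after quantile normalization and 0.69 with array spread as a covariate. Postn, a matrix protein of activated fibroblasts, was at 0.57 (SE 0.27), but Mmp3 was at -0.62, Mmp13 at -0.44 and Fn1, fibronectin, at -0.34, each with an unadjusted p under 0.05. Without IFNbeta replicate 3, 7 members passed higher and 2 lower, against 2.96% and 8.83% of all genes. The lower ones were Lum, at -1.48 (adjusted p 0.049), and Fn1, at -0.45.

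**Figure D2:**
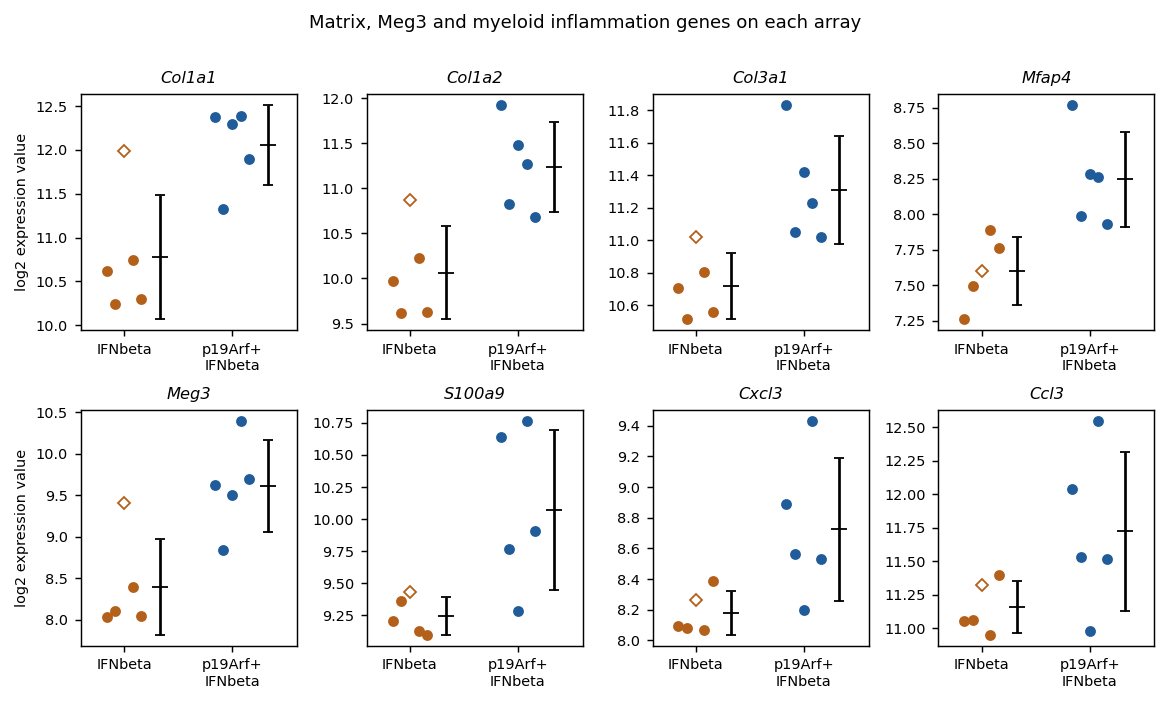
Log2 expression value of 4 matrix genes, the noncoding RNA Meg3 and 3 myeloid inflammation genes on each array of the IFNbeta group (brown) and the p19Arf+IFNbeta group (blue); the open diamond is IFNbeta replicate 3, and the black bar and whiskers are the mean and SD of 5 arrays. In Col1a1, Col1a2 and Meg3 the diamond (11.99, 10.87 and 9.40) lies among the blue points, while in S100a9, Cxcl3 and Ccl3 the widest spread is among the blue points.

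Meg3, a long noncoding RNA expressed from the maternal copy of an imprinted region of chromosome 12, was at 8.04, 8.11, 9.40, 8.39 and 8.05 against 9.63, 8.84, 9.51, 10.40 and 9.70. IFNbeta replicate 3 again stood with the combination arrays, of which 4 lay above it. The difference was 1.22 (SE 0.33, adjusted p 0.150), and 1.47 without that array, where it passed (adjusted p 0.038), against 0.81 with the array spread as a covariate. Meg3 is followed on its strand by a large cluster of microRNA genes, which RefSeq lists at 109563692 to 109747960 of chromosome 12 (GRCm38.p6) with 57 microRNA genes, 39 of them measured here. The array reads RNA that overlaps these genes, not the mature microRNAs. All 39 were higher in mean, 24 with an unadjusted p under 0.05 (11.8% of all genes), and the median was 0.27. MicroRNA genes elsewhere were also mostly higher, 208 of 261 with a median of 0.15 and 62 (23.8%) at that p, and the list means of the cluster, 5.52 to 5.80 on the IFNbeta arrays and 5.78 to 6.09 on the combination arrays, lie in the part of the range where most genes were higher.

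The mature forms of the 4 cluster genes with the smallest p, as RefSeq lists them, are shown with the seed, bases 2 to 8, in capitals. They are shown to make clear that the cluster's genes are separate sequences.
mmu-miR-369-5p: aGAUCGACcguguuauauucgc
mmu-miR-369-3p: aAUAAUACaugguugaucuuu
mmu-miR-380-5p: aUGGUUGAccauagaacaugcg
mmu-miR-380-3p: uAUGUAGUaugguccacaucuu
mmu-miR-539-5p: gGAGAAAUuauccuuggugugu
mmu-miR-341-5p: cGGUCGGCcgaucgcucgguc
mmu-miR-341-3p: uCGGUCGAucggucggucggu
No seed is shared among these 7. Among the 39 measured genes of the cluster, miR-379-3p and miR-411-3p share a seed, as do miR-376b-5p and miR-376c-5p. The genes of the cluster that were not measured were not compared.

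Mir369 was at 4.10, 4.13, 4.23, 4.12 and 4.52 against 4.62, 4.44, 4.53, 4.72 and 4.77 (0.39, SE 0.10, adjusted p 0.150), with 4 of 5 combination arrays above all IFNbeta arrays. Mir380 was at 0.60 (SE 0.16), Mir341 at 0.57 (SE 0.17) and Mir539, whose groups did not overlap, at 0.32 (SE 0.09). Of the 39, 11 passed without IFNbeta replicate 3, all higher (2.96% of all genes did). The median of the 39 was 0.20 after quantile normalization and 0.14 with array spread as a covariate, against 0.05 and 0.02 for the microRNA genes elsewhere. Rian, a noncoding RNA within the region, was at 0.40 (SE 0.16, adjusted p 0.159), and Rtl1, a protein-coding gene expressed from the paternal copy, at 0.24 (adjusted p 0.231). The 3 small nucleolar RNA genes measured in the region were at -0.01, 0.09 and 1.26 (adjusted p 0.976, 0.435 and 0.150).

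By unadjusted p, the 12 leading genes higher with the combination had differences from 0.35 to 0.65, with all 5 combination arrays above all IFNbeta arrays and an adjusted p of 0.150 in each. Such separation held for 1.3% of all genes. A choice by p in this same comparison favors it, so it adds no separate evidence. Beside Ngp and Mfap4 they were Cacna1g, a T-type calcium channel (0.57), Arsi, a sulfatase (0.53), Adamts15, a protease of matrix proteoglycans (0.52), Tnn, the matrix protein tenascin-N (0.62), Brinp3 (0.65), Fignl2 (0.55), the adhesion receptor Adgrb3 (0.53), Capn6 (0.45), Lefty1, an inhibitor of Nodal signalling (0.42), and Olfml1 (0.35). All 12 passed without IFNbeta replicate 3 (2.96% of all genes did so as higher). Brinp3 had narrow IFNbeta values, 6.29, 6.28, 6.37, 6.34 and 6.25, against 7.33, 6.77, 6.54, 7.24 and 6.88, and combination replicates 1 and 4 were the highest. All 12 lay at or below the median level of the genes, in the part of the range where most genes were higher. With the array spread as a covariate their differences lay between 0.32 for Olfml1 and 0.69 for Mfap4. It is not known from these data which cells carry these transcripts.

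The 12 leading lower genes were Samd9l, Cmpk2 and Usp18 of the interferon response, together with Pnpt1, a mitochondrial RNA-processing enzyme (-0.60), Acpp, a secreted and membrane acid phosphatase (-0.69), Car12, a membrane carbonic anhydrase (-0.60), Arrdc3, an arrestin-domain protein (-0.36), Rpgrip1l, a protein of the base of the primary cilium (-0.54), Fcrl5, a receptor of B cells (-0.65), and the zinc finger genes Zfp930 (-0.62), Zfp81 (-0.70) and Zfp820 (-0.54). Acpp was at 8.27, 8.12, 8.40, 8.49 and 8.64 against 7.59, 7.99, 7.70, 7.53 and 7.67, with no overlap and combination replicate 2 nearest to the IFNbeta range. Fcrl5 was at 7.49, 7.40, 7.04, 7.43 and 7.92 against 6.95, 6.99, 7.02, 6.56 and 6.53, with IFNbeta replicate 3 just above the combination arrays. In 10 of the 12 no array overlapped, and in Zfp930 and Pnpt1 1 combination array did. Separation in this direction held for 0.782% of all genes, and here too the choice by p favors it. All 12 passed without IFNbeta replicate 3 (8.83% of all genes did so as lower). With the array spread as a covariate Zfp81 was at -0.36, Zfp820 at -0.30 and Rpgrip1l at -0.30, while Cmpk2 was at -0.65 and Usp18 at -0.66. Under that covariate and without IFNbeta replicate 3, Cmpk2 was at -0.45, Usp18 at -0.37 and Zfp81 at -0.34.

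**Figure D3:**
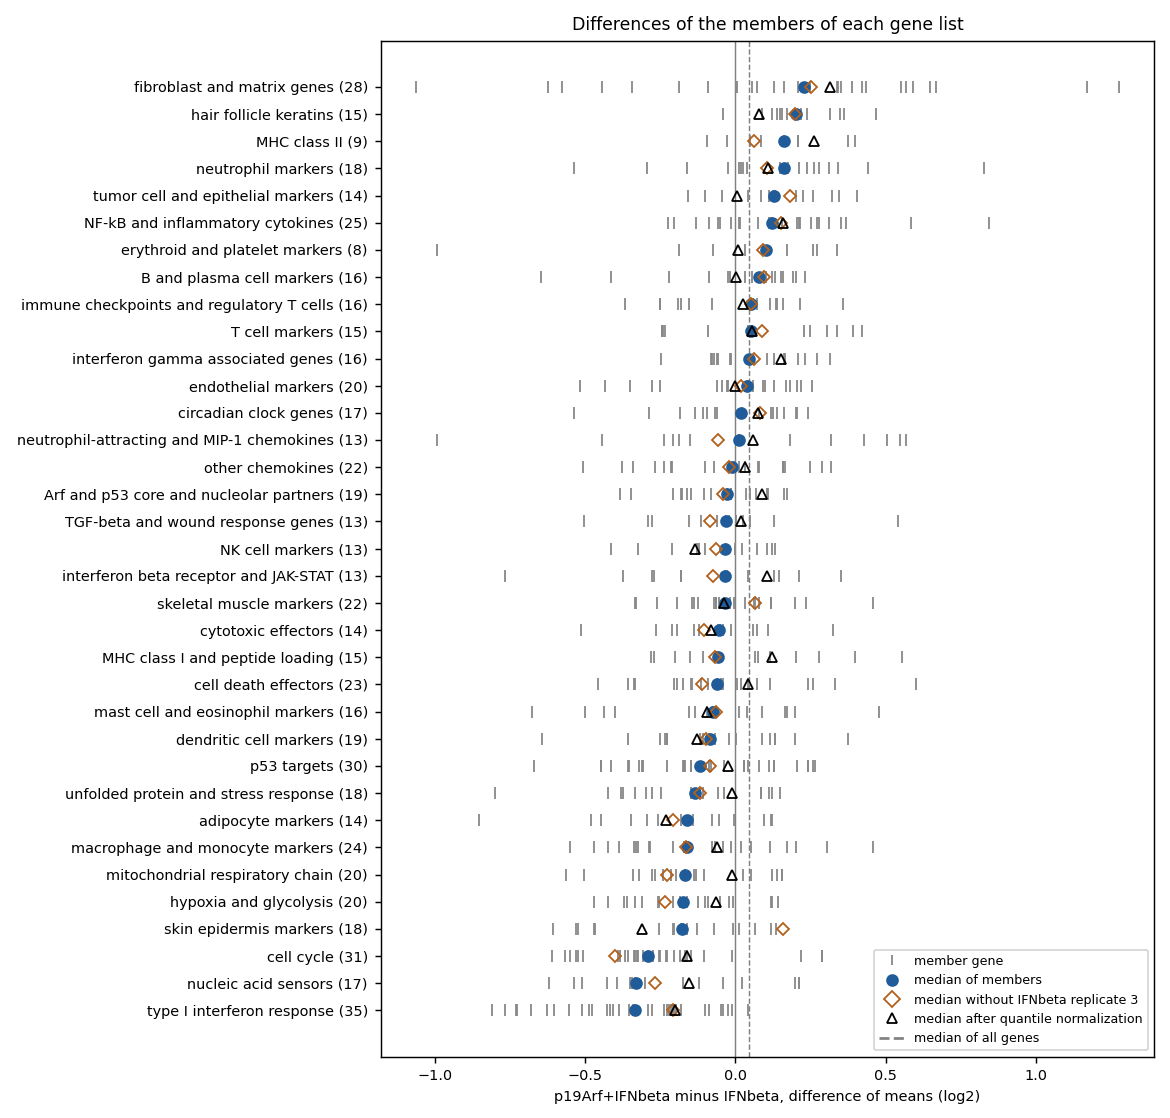
Difference of means between p19Arf+IFNbeta and IFNbeta (log2, x axis) for each measured member (grey ticks) of 35 gene lists (number measured in brackets), with the median of the members (filled circles), the median without IFNbeta replicate 3 (open diamonds), the median after quantile normalization (open triangles) and the median of all genes, 0.05 (dashed line). The type I interferon list has the lowest median (-0.34) and the fibroblast and matrix list the highest (0.23); the skin epidermis list is at -0.18, or 0.16 without IFNbeta replicate 3.

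Differences varied with the level of expression. With the genes ranked by mean level and cut into 5 groups of nearly equal size, the median difference was 0.12 in the lowest group, then 0.15, 0.07 and -0.10, and -0.19 in the highest. After quantile normalization the same medians lay between -0.03 and 0.04, and between -0.02 and 0.02 with the spread covariate. The cell cycle, unfolded protein, hypoxia, respiratory chain and macrophage lists had group means in the range of the highest group. Those of the interferon and sensor lists lay near its lower end, 9.59. Of 9969 genes above the median level, 2462 were lower at an unadjusted p under 0.05 (limma), a larger share than over all genes. Olfactory receptor genes, a family that few tissues use, were higher in 891 of 1027 cases, with a median of 0.14, or 0.03 after quantile normalization. With the spread covariate the median of the cell cycle list was -0.04, that of hypoxia and glycolysis -0.09 and that of the respiratory chain 0.03. The type I interferon list was at -0.29 with the spread as a covariate, with 34 of 35 members lower. That fit includes IFNbeta replicate 3, the array with the highest mean of this list. Under the covariate and without that array, Samd9l was at -0.36, Cmpk2 at -0.45 and Usp18 at -0.37. Phf11d was then at -0.26, Ifih1 at -0.17 and Mx1 at 0.02.

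**Figure D4:**
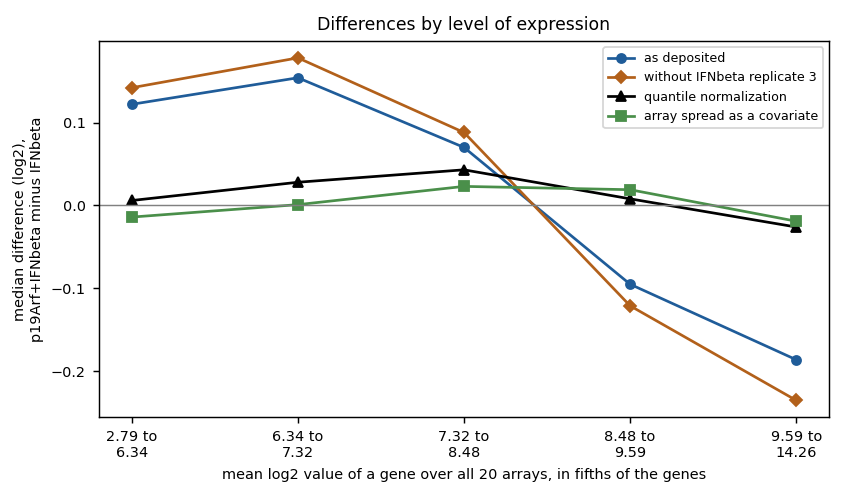
Median difference between p19Arf+IFNbeta and IFNbeta (log2, y axis) in 5 groups of the 19938 genes by mean log2 value over all 20 arrays (x axis), as deposited, without IFNbeta replicate 3, after quantile normalization, or with array spread as a covariate. As deposited the medians run from 0.12 in the lowest group to -0.19 in the highest, and under the last 2 settings they lie within 0.05 of 0.

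The p19Arf vector was also compared on the background of the eGFP vector, in 10 arrays that share none with the comparison above. Over all genes, which are not independent, the difference of p19Arf minus eGFP correlated with that of the combination minus IFNbeta at r = 0.756 (rho 0.719), and 80% of genes had the same sign. After quantile normalization r was 0.697 with 71.8% of the same sign. With array spread as a covariate r was 0.381 with 60.2%. The array spread was also lower with p19Arf alone (1.80 ± 0.09) than with eGFP (1.87 ± 0.05, SD, n = 5 each), and its part in this likeness beyond those values was not tested.

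The genes given next were named for their values in the combination against IFNbeta, a choice that by itself favors larger values in that comparison. Samd9l was at -0.55 for the combination against IFNbeta and at -0.14 for p19Arf against eGFP, Cmpk2 at -0.81 and -0.20, and Usp18 at -0.77 and -0.20. Col1a1 was at 1.28 and 0.59, Mfap4 at 0.65 and 0.36, S100a9 at 0.83 and 0.43, and Cxcl3 at 0.55 and 0.00. The type I interferon list had a median of -0.03 for p19Arf against eGFP, with 26 of 35 members lower (45.6% of all genes were) and 0 members at an unadjusted p under 0.05 by limma in either direction (2.84% of all genes higher, 4.4% lower). The test of the difference between the contrasts gave 0 genes past the threshold by limma and 260 (1.3%) at an unadjusted p under 0.05, so no difference between the backgrounds was called for any gene. For Samd9l it was -0.41, for Cmpk2 -0.61 and for Cxcl3 0.55.

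**Figure D5:**
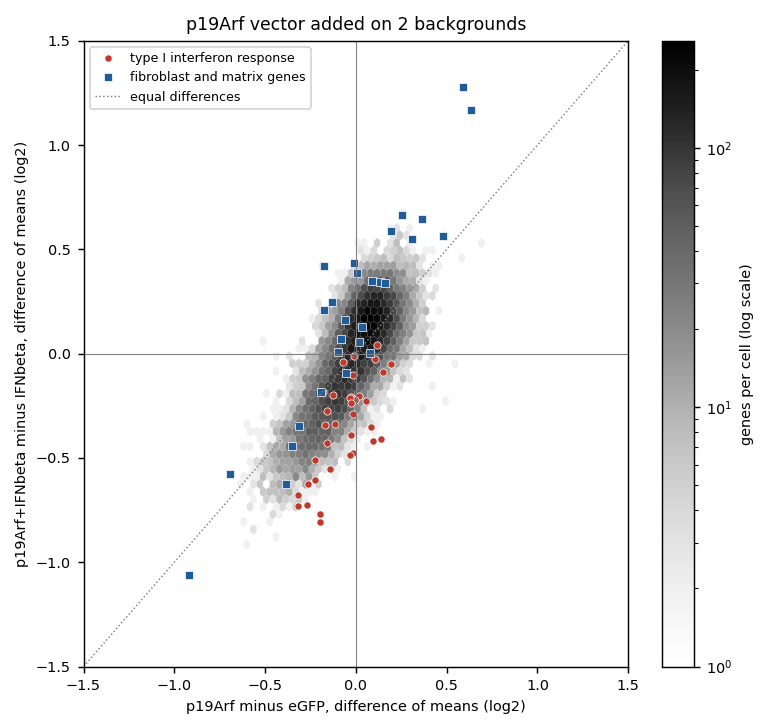
Difference of means (log2) when the p19Arf vector was added to the IFNbeta vector (y axis) against p19Arf minus eGFP (x axis) for 19938 genes, shaded by the number of genes per cell on a log scale, with the type I interferon list (red circles) and the fibroblast and matrix list (blue squares); the dotted line marks equal differences. Most interferon members lie below the line, with medians of -0.34 on the y axis and -0.03 on the x axis, and Col1a1 lies highest at 1.28.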

How the data were processed

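RNA of implanted LLC-1 tumors was measured on 20 Affymetrix arrays, 5 for each of 4 vectors or vector pairs. The deposited table holds log2 values that the authors made with Affymetrix Expression Console and GCOS, per the submitters' processing notes; the sources used here do not give how the background was corrected or the arrays normalized. The log base was read from the values (2.33 to 14.7, array medians 7.49 to 7.61). Arrays were grouped by their labels. Of 35556 probe sets, 21789 carried 1 gene symbol, 1621 several, and 12146 none or no listing; symbols were updated through RefSeq and 91 were kept as annotated. This left 19938 genes, 999 of them with several probe sets.

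Means of the 4 groups were fitted on all 20 arrays with limma 3.58.1 (R 4.3.3), a fit with 16 residual degrees of freedom, moderated by eBayes with Benjamini-Hochberg adjustment over all genes; the threshold was an adjusted p of 0.05, 2-sided, and no filter on low values was set. For Cdkn2a and Ifnb1 an exact permutation test over arrays was added. The script was tested on simulated data. The arrays give no read depth; their number limits the precision, which is given as SD over arrays or SE of the fit. A list mean is the mean log2 value of its measured members on an array.

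The text names Cdkn2a and Ifnb1; of the genes that pass, the 12 with the largest difference in each direction, filled by the smallest unadjusted p where fewer pass (predicted, olfactory and similar genes left out, 1 in each direction); and up to 5 members with the smallest p of each list described. Other genes named, such as Mx1, Meg3, Rsad2, Ifit3b, Egfl7 and the chromosome 12 microRNA genes, were chosen after their values were seen. The 35 lists (646 of 717 members measured) and the comparison were chosen with earlier results of these data known, so lists carry counts and medians and no test. Alternatives covered the normalization, the moderation, array weights, the replicate number as a block, the filter, the choice of probe set, covariates and each array left out; combinations of these with the removal of IFNbeta replicate 3 were added after seeing the data.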

Additional observations from a re-analysis of the deposited data

Results flagged for a closer look

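Of 138 values examined, each a named gene or a list mean within a group of 5 arrays, 7 had 1 array far from the other 4 by Dixon's criterion, which chance meets in about 1 group in 20. In 5 of them the array was IFNbeta replicate 3. Its mean over the skin epidermis markers was 8.40 against 6.53 to 6.70 on the other IFNbeta arrays, its cell cycle mean was 9.84 against 10.18 to 10.30, Mx1 was at 9.07 against 7.59 to 7.85, Meg3 at 9.40 against 8.04 to 8.39, and Ifnb1 at 6.65 against 6.03 to 6.20.

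In the combination group, replicate 3 had a dendritic cell marker mean of 8.23 against 8.10 to 8.13 on the other arrays, and replicate 4 had Capn6 at 6.70 against 6.37 to 6.46. What set these arrays apart was not tested.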

How the results depend on the processing

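With all arrays 0 of 19938 genes passed and 5147 had an unadjusted p under 0.05. The count of genes that passed was 1730 with array weights, of which 1564 were shared with the 2351 that passed without IFNbeta replicate 3, 1852 without IFNbeta replicate 3 in only the 9 other arrays of these groups, 1 with median centring and 1 among the 9969 genes above the median level. With 1 array left out at a time it lay between 0 and 2351, with 1 without p19Arf+IFNbeta replicate 2 and 0 in each other case. The count at an unadjusted p under 0.05 was 3054 among genes above the median level (592 higher, 2462 lower), 724 with the array spread as a covariate and 894 with that covariate and without IFNbeta replicate 3; with 1 array left out it lay between 2478, without p19Arf+IFNbeta replicate 4, and 7189, without IFNbeta replicate 3, and it was 3051 and 3020 without IFNbeta replicates 4 and 5. Median centring moved the share of lower genes among these from 54.3% to 68.7%, and array weights gave 71.8% lower among the genes that passed.

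Of 128 named genes 6 changed sign in some setting. Mdm2 was at 0.0857 after quantile normalization, 0.0271 with the array spread as a covariate, and 0.168 and 0.136 when these were combined with the removal of IFNbeta replicate 3; Irf7 was at 0.134 with quantile normalization and that removal. With the spread covariate and that removal Cdkn2a was at -0.0334, Casp1 at 0.0127, Gzmb at 0.0461 and Mx1 at 0.0210. The cause was not tested. The replicate number as a block gave 0 genes past the threshold and 4556 at an unadjusted p under 0.05. Same-numbered arrays correlated in their deviations at -0.43 to 0.26, and 1 of 5 correlated best with its own number. So few arrays cannot settle whether the numbers pair the samples. With 5 arrays a group and no detection calls, low signals could not be told from background.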

Other observations

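Gene families picked by symbol after their values had been seen moved in blocks in mean. Of 44 collagen genes 40 were higher with the combination, 22 with an unadjusted p under 0.05 and 0 lower at that p (limma), with a median difference of 0.25 on the log2 scale, against 0.05 over all genes, of which 57.1% were higher and 11.8% at that p. The median was 0.23 after quantile normalization, or 0.03 with array spread as a covariate. Without IFNbeta replicate 3, 12 of the 44 passed, all higher (2.96% of all genes did). Of 19 Wnt genes, which encode secreted growth factors of development, 18 were higher with a median of 0.24, and of 18 Adamts genes, secreted proteases of the matrix, 15 were higher with a median of 0.18; with the array spread as a covariate these medians were 0.05 and 0.06.

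On the other side, 11 of 12 Alg genes, which build the sugar chain of N-glycoproteins, were lower with a median of -0.32, and 9 of 10 Mcm genes, of the replication helicase and its kin, were lower with a median of -0.29. Both medians were -0.06 with the array spread as a covariate. Of 347 Zfp genes, mostly zinc finger regulators, 215 were lower, 83 with an unadjusted p under 0.05 (14% of all genes), with a median of -0.09. These families were chosen for their values, and the counts are a description.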
